A study of Rattus norvegicus with 63 samples.

Results

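The transcripts of 3 dopamine receptors, Drd1, Drd2 and Drd3, were followed through the brains of rats that had taken cocaine. They were read by the probe sets whose only gene symbol in the platform annotation is one of these names: 3 for Drd1 (S46131mRNA_s_at, M35077_s_at and S46131mRNA_r_at), 1 for Drd2 (X56065_s_at) and 2 for Drd3 (X53944_at and A17753cds_s_at), so that 3 of 720 named genes and 6 of 1263 probe sets are described. The rats of the short access group could give themselves intravenous cocaine for 1 h a day and those of the long access group for 6 h a day, with 0.25 mg in each injection, while the no access group (0 h) stayed drug-naive. Each group had 8 rats. Total RNA of dissected brain regions was hybridised to Affymetrix rat neurobiology arrays, 63 in all. There were 4 arrays per access group for the nucleus accumbens, the amygdala and the lateral hypothalamus, and 3 per access group for the septum, the ventral tegmental area and the medial prefrontal cortex. The strain and age of the rats are not given in the sources used here, nor is any pooling of RNA across rats, and the p-values therefore measure how far these arrays spread.

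Dopamine acts on these receptors, which pass its signal on through G proteins. Drd1 couples to stimulatory G proteins and raises cyclic AMP, and in the striatum and nucleus accumbens it marks the projection neurons of the direct pathway, which also make substance P and dynorphin. Drd2 couples to inhibitory G proteins and lowers cyclic AMP. It marks the projection neurons of the indirect pathway, which also make enkephalin and the adenosine receptor Adora2a, and it is the autoreceptor of midbrain dopamine neurons. Drd3 is a receptor of the same inhibitory class, known from limbic parts of the striatum.

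RefSeq promoter sequences of the rat build GRCr8 were matched by symbol for 3 of the 3 genes. Those of Drd2 and Drd3, receptors of the same class, are shown because of their probe sets, as described below. Drd2 varied strongly between brain regions, and X53944_at of Drd3 varied little. Which of the 2 Drd3 probe sets reads Drd3 was not tested. Each is the 250 bases before the annotated start, in the direction of the gene (Drd2 on the plus strand, Drd3 on the minus strand), with matches to the GC box GGGCGG, or CCGCCC on the other strand, in capitals.
Drd2, chr8:58605153-58605402: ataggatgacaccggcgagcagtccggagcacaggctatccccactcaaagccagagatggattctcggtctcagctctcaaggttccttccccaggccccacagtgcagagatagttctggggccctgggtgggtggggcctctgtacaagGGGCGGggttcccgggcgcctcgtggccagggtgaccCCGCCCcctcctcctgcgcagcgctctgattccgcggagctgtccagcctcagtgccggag
Drd3, chr11:70437794-70438043: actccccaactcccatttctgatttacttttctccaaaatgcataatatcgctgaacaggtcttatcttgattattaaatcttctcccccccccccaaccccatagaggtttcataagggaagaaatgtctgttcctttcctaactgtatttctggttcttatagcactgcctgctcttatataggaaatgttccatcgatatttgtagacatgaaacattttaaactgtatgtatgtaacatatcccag
The Drd2 stretch was 66.0% G and C and held 2 GC boxes, which begin 61 and 98 bases before the start. The Drd3 stretch was 38.0% G and C and held 0. Over 33469 rat promoters the median G and C content of the same 250 bases was 51.2%, and 30.5% held a GC box on either strand. No stretch of the 3 genes held the letters TATAAA (in 12.9% of all promoters on either strand) or TGACGTCA (in 1.59%), which says only that those letters are not in these windows. The Drd1 stretch lies inside the annotated gene and is not shown.

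Signals are given as log2 of the array signal after scaling, with a floor of 5 (a signal of 32). Values at the floor have no order. The levels of different probe sets were not set against each other. Tests used limma with Benjamini-Hochberg adjustment over all probe sets tested in a comparison, and a difference is said to be called at an adjusted p under 0.05. A probe set was tested in a region where its mean reached a signal of 100 there, and across regions where it did so in at least 1. That left 5 of the 6 for comparisons between regions, since A17753cds_s_at stayed under it everywhere. In RNA of whole dissections, fewer cells of a type and less RNA per cell cannot be told apart.

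Drd1 stood far above its level elsewhere in the nucleus accumbens, and all 3 probe sets showed it. S46131mRNA_s_at lay between 10.61 and 11.00 on the 12 arrays of that region (median 10.77), while no array of another region went above 8.59. M35077_s_at lay between 7.84 and 9.59 (median 9.16) against at most 6.93 elsewhere, and S46131mRNA_r_at between 7.73 and 8.58 (median 8.15) against at most 6.15. In none of the 3 did the nucleus accumbens overlap with another region. Against the mean of the other 5 regions, Drd1 was higher by 3.80 ± 0.11 (log2, SE) by S46131mRNA_s_at, a 13.9-fold difference, by 3.65 ± 0.10 by M35077_s_at (12.5-fold) and by 2.92 ± 0.11 by S46131mRNA_r_at (7.55-fold). The largest of their adjusted p was 3.8e-29 by limma. M35077_s_at and S46131mRNA_r_at passed the signal filter only through the nucleus accumbens, where they are high, so their p-values are a description. The last 2 of these folds are held down by the floor, where 24 of the 63 arrays lay for M35077_s_at and 34 for S46131mRNA_r_at.

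**Figure D1:**
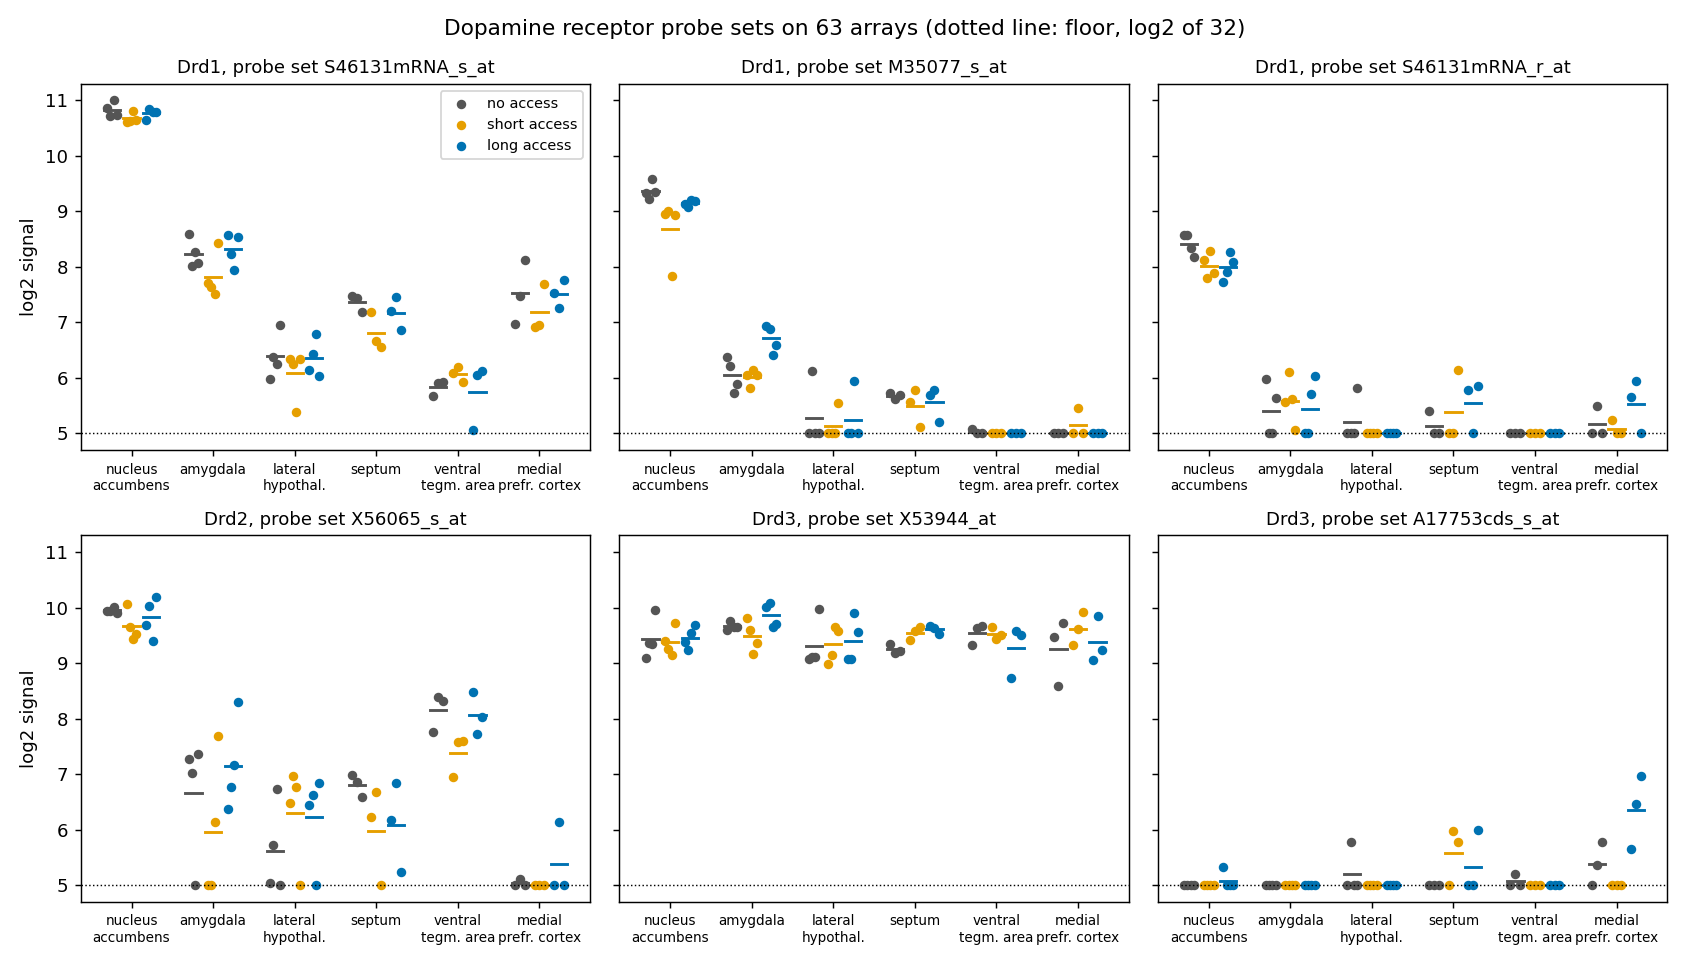
Log2 signal of the 6 dopamine receptor probe sets by brain region and access group. Each point is 1 array, short bars are group means and the dotted line is the floor. The Drd1 and Drd2 probe sets are highest in the nucleus accumbens, X53944_at of Drd3 lies between 8.59 and 10.08 in every region, and A17753cds_s_at is at the floor on 52 of 63 arrays.

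Drd2 was likewise highest in the nucleus accumbens, with the ventral tegmental area next. X56065_s_at lay between 9.39 and 10.20 on the 12 arrays of the nucleus accumbens (median 9.92). On the 9 arrays of the ventral tegmental area it lay between 6.94 and 8.48 (median 7.77), all below those of the accumbens. Against the mean of the other 5 regions Drd2 was higher by 3.43 ± 0.22 (10.8-fold, adjusted p = 8.0e-20, understated by the 14 arrays at the floor) in the nucleus accumbens and by 1.09 ± 0.24 (2.13-fold, adjusted p = 9.0e-05) in the ventral tegmental area. X56065_s_at passed the signal filter only through these regions, where it is high, so these p-values are a description. The medial prefrontal cortex was at the other end, with 7 of 9 arrays at the floor and a difference of -2.18 ± 0.24, which the floor understates.

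In the ventral tegmental area the receptors parted. There the 3 Drd1 probe sets stood below the average of the rest of the brain regions, at -2.06 ± 0.12, -1.23 ± 0.11 and -0.86 ± 0.12, while Drd2 was higher. That average includes the nucleus accumbens. In the medial prefrontal cortex Drd2 was at -2.18, while Drd1 by S46131mRNA_s_at was at -0.22 and not called. By M35077_s_at and S46131mRNA_r_at Drd1 was called lower there, at -1.18 and -0.55. By M35077_s_at and S46131mRNA_r_at the tegmental area was not called apart from the lateral hypothalamus or the medial prefrontal cortex (-0.04 and -0.26 to the latter). In the tegmental area S46131mRNA_r_at was at the floor on all 9 arrays and M35077_s_at on 8 of 9. The dissection carried the transcripts of dopamine neurons: all 4 of their markers tested were higher there, where 33.6% of all probe sets were. The enzyme of the first step to dopamine, Th, stood 6.70 ± 0.20 above the mean of the other regions, and the transporter that takes dopamine back up, Slc6a3, stood 4.86 ± 0.27 above it. Th lay between 13.47 and 13.75 on its 9 arrays and Slc6a3 between 11.05 and 11.52.

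The order of the regions was read from neighbours in it. For Drd1 by S46131mRNA_s_at it ran from the nucleus accumbens (10.76 ± 0.12, SD, n = 12) to the amygdala (8.13 ± 0.38), the medial prefrontal cortex (7.41 ± 0.42), the septum (7.12 ± 0.34), the lateral hypothalamus (6.27 ± 0.40) and the ventral tegmental area (5.88 ± 0.35). Each neighbour differed from the next except the medial prefrontal cortex from the septum (0.29 ± 0.16, adjusted p = 0.106), and that pair was called with quantile normalization (0.47), with the values as deposited (0.29) or without no access array 1 of the cortex (0.38). The step from the lateral hypothalamus to the ventral tegmental area (0.39 ± 0.15, adjusted p = 0.0259) was not called when 1 array was left out: in the hypothalamus array 4 of no access (0.33) or array 3 of long access (0.34), and in the tegmental area array 1 of no access (0.36), array 3 of short access (0.37) or array 1 of long access (0.28). It was not called with the array number as a block (0.35), with the values as deposited (0.24) or with only the no access arrays (0.55). By M35077_s_at the amygdala (6.26) stood above the septum (5.58) by 0.68 ± 0.14, a step not called with no floor (0.68) or with only the no access arrays (0.37). The step from the septum to the lateral hypothalamus (5.22) was 0.36 ± 0.14 (adjusted p = 0.0244), but not called without array 2 of short access (0.31) or of long access (0.32) in the septum, and the last 3 regions did not differ. The step from the septum was also not called with the values as deposited or with only the no access arrays. By S46131mRNA_r_at no neighbours after the nucleus accumbens differed, and most of those arrays were at the floor. The lateral hypothalamus was called below the medial prefrontal cortex with quantile normalization (-0.38) or with no floor (-1.11).

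For Drd2 the order was nucleus accumbens (9.81 ± 0.27), ventral tegmental area (7.87 ± 0.49), amygdala (6.59 ± 1.11), septum (6.29 ± 0.72), lateral hypothalamus (6.05 ± 0.83) and medial prefrontal cortex (5.14 ± 0.38). The amygdala, septum and hypothalamus did not differ from their neighbours among each other, with differences of 0.30 ± 0.30 and 0.24 ± 0.30, while the hypothalamus stood above the prefrontal cortex by 0.91 ± 0.30 (adjusted p = 0.00658). That step was 0.34 with the values as deposited and 0.58 with only the no access arrays, and not called in either. With only the no access arrays the septum stood above the hypothalamus by a called difference, the latter being at -1.19 to the former. Their arrays were spread widely: in the amygdala Drd2 was at the floor on 3 of 12 arrays and at 8.30 on another.

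The share of all 858 probe sets called was large in these comparisons, so that a call alone says little about the receptors. M35077_s_at and S46131mRNA_r_at passed the signal filter in the nucleus accumbens alone, where they are high, and Drd2 there and in the ventral tegmental area, so the counts that follow are a description. In the nucleus accumbens 4 of the 5 receptor probe sets were called higher, where 32.5% of all were, and in the ventral tegmental area 1 was called higher and 3 lower, where 33.6% and 35% of all were. The counts were 3 higher and 1 lower in the amygdala (25.3% and 24.8% of all), 4 lower in the lateral hypothalamus (26.1%), 4 lower in the septum (22.8%) and 3 lower in the medial prefrontal cortex (40.9%). The mean of the other 5 regions includes the nucleus accumbens, so its high Drd1 and Drd2 alone can make the rest lower. M35077_s_at in the septum was counted lower, and it was below the accumbens and the amygdala. It stood above the lateral hypothalamus (0.36), the ventral tegmental area (0.57) and the medial prefrontal cortex (0.53). With no floor the septum values of M35077_s_at (-0.54) and S46131mRNA_r_at (-0.44) were -0.025 and -0.23 and the cortex value of S46131mRNA_r_at (-0.55) was -0.25, none of them called. With only the no access arrays the septum values of M35077_s_at (-0.47), S46131mRNA_s_at (-0.39) and Drd2 (-0.28) were not called. Between the neighbours that differed, the share called over all probe sets was 47% (nucleus accumbens and amygdala), 72.1% (nucleus accumbens and ventral tegmental area), 66% (ventral tegmental area and amygdala), 48.1% (amygdala and medial prefrontal cortex), 52.2% (amygdala and septum), 49.5% (septum and lateral hypothalamus), 45.1% (lateral hypothalamus and ventral tegmental area) or 66.7% (lateral hypothalamus and medial prefrontal cortex). Of those not called, Drd2 in the amygdala (-0.44 ± 0.22) was called without array 4 of short access (-0.63) or of long access (-0.57), and S46131mRNA_s_at in the medial prefrontal cortex (-0.22 ± 0.12) without array 3 of no access (-0.33) or of short access (-0.31). With the values as deposited each of them was called (-0.47 and -0.27), and with array weights the latter was (-0.45). By all 3 Drd1 probe sets the mean of the amygdala was next below that of the nucleus accumbens. By S46131mRNA_r_at the amygdala was above the lateral hypothalamus by 0.41 ± 0.14 and above the ventral tegmental area by 0.47 ± 0.15. Against the mean of the other 5 regions, which includes the nucleus accumbens, their signs in the amygdala nevertheless differed. S46131mRNA_s_at was higher by 0.64 ± 0.11 (adjusted p = 1.4e-06 by limma), M35077_s_at by 0.27 ± 0.10 (0.0185) and S46131mRNA_r_at lower, by -0.29 ± 0.11 (0.0255). The call of M35077_s_at was lost without array 1 of no access (0.24), with quantile normalization (0.21) or with array weights (0.27). Its sign turned with the values as deposited (-0.34) or with only the no access arrays (-0.018). The call of S46131mRNA_r_at was lost without array 2 or array 3 of no access (-0.25 for each), array 4 of short access (-0.23), or array 1 or array 2 of long access (-0.24 for each), and its sign turned with no floor. It was also lost with array weights (-0.18) or with only the no access arrays (-0.38).

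Of the Drd3 probe sets, X53944_at varied little between regions. X53944_at lay between 8.59 and 10.08 on all 63 arrays (median 9.53), with region means from 9.36 in the lateral hypothalamus to 9.67 in the amygdala. No neighbours in that order differed. Its ends did, the amygdala standing above the lateral hypothalamus by 0.31 ± 0.12 (adjusted p = 0.0260, in a comparison where 57% of all probe sets were called), but the call was lost with quantile normalization (0.22), with only the no access arrays (0.35), or without array 1 of short access in the amygdala (0.28) or, in the hypothalamus, array 1 of no access (0.29) or of short access (0.28) or array 1 or array 2 of long access (0.28 for each). The nucleus accumbens differed from the other 5 by -0.05 ± 0.10 (adjusted p = 0.694, 95% interval -0.24 to 0.15). The amygdala was higher by 0.25 ± 0.10 (adjusted p = 0.0306), but the call was lost without array 2 of no access (0.24), array 1 (0.21) or array 2 (0.23) of short access, or array 1 (0.23) or array 2 (0.22) of long access, and with the array number as a block (0.21). It was also lost with quantile normalization (0.19), with array weights (0.22) or with only the no access arrays (0.30). The other Drd3 probe set, A17753cds_s_at, was at the floor on 52 of 63 arrays, among them all 12 of the amygdala and 11 of 12 of the nucleus accumbens. Neither probe set thus set the accumbens apart, and while X53944_at was above the floor on all 63 arrays, A17753cds_s_at was so on 11. Which of them reads Drd3 was not tested.

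Genes known from striatal projection neurons were high in the same region as Drd1 and Drd2. Of a list of 20, 10 were on the array, 9 were tested and 8 were higher in the nucleus accumbens, none lower, with a median difference of 2.60 against -0.01 over all probe sets tested. They were Adora2a (3.24 ± 0.12), the retinoic acid receptor Rarb (3.20), enkephalin (Penk, 2.75 ± 0.09), dynorphin (Pdyn, 2.70), substance P (Tac1, 2.60), the calmodulin-binding Pcp4 (1.16), the vesicular GABA transporter Slc32a1 (1.00) and the GABA-making enzyme Gad1 (0.95). The muscarinic receptor Chrm4 was at -0.15 and not called. Of 36 genes that make, clear or pass on dopamine, 21 were on the array and 16 tested. In the nucleus accumbens 1 was higher, the protein kinase A subunit Prkar2b (1.18 ± 0.09), and 9 were lower, with a median of -0.30, where 32.5% of all probe sets were called higher and 33.3% lower. Among them were Th (-2.14), the vesicular monoamine transporter Slc18a2 (-1.60), the stimulatory G protein Gnas (-0.70) and the monoamine oxidases Maoa (-0.43) and Maob (-0.28). In the ventral tegmental area 10 of the 16 were higher and 5 lower, where 33.6% and 35% of all probe sets were. Drd5, the other stimulatory dopamine receptor, was at -0.08 ± 0.09 in the nucleus accumbens and not called, and Drd4 did not reach the signal needed for a test.

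The genes most like each receptor over the 18 group means of region and access were named by Pearson r, as a description, since the points share arrays and 3 of them are the nucleus accumbens. For Drd1 by M35077_s_at they were Adora2a (0.986), Rarb (0.937), Prkar2b (0.931), the retinoid receptor Rxrg (0.924) and the potassium channel Kcnh4 (0.920). By S46131mRNA_r_at they were the ephrin receptor Epha8 (0.960), Adora2a (0.959), Prkar2b (0.954), Rarb (0.952) and the potassium channel Kcna4 (0.918). By S46131mRNA_s_at they were Kcnh4 (0.975), Adora2a and Prkar2b (0.949 each), the calcineurin subunit Ppp3ca (0.940) and Kcna4 (0.921). Adora2a and Prkar2b were thus in the first 5 of all 3 Drd1 probe sets. For Drd2 the first 5 were the phosphodiesterase Pde4b (0.887), Tac1 (0.870), the transcription factor Pou3f4 (0.852), the synaptic vesicle protein Sv2c (0.835) and Rarb (0.800). For X53944_at of Drd3 no r went above 0.695 (Nalcn), followed by Capn1 (0.687), Adrb3 (0.663), Fgfr4 (0.659) and Bdkrb1 (0.652).

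How far the likeness reached beyond the nucleus accumbens was seen from the 15 groups of the other regions. There the r of Adora2a was 0.895 with M35077_s_at, 0.743 with S46131mRNA_s_at and 0.605 with S46131mRNA_r_at, and that of Prkar2b 0.504, 0.751 and 0.708. With S46131mRNA_s_at Ppp3ca had 0.932 and Kcnh4 0.899. Rarb was left with 0.382 to M35077_s_at and 0.088 to Drd2, and Epha8 with 0.152 to S46131mRNA_r_at. Outside the nucleus accumbens M35077_s_at was at the floor on 24 arrays, S46131mRNA_r_at on 34 and Drd2 on 14. Part of their group means thus lay at or near the floor, which limits what these r can show. Over all 18 groups the 3 Drd1 probe sets correlated with each other at 0.930 to 0.967 and with Drd2 at 0.623 to 0.801. X53944_at correlated with none of them above 0.112.

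The relation of Drd1 to Drd2 was followed within each array, as the log2 signal of S46131mRNA_s_at minus that of X56065_s_at. This difference of a pair of probe sets has no meaning of its own and was compared only between groups, in 33 comparisons. It averaged 0.94 ± 0.26 in the nucleus accumbens (SD, n = 12), 1.54 ± 0.95 in the amygdala, 0.22 ± 1.09 in the lateral hypothalamus, 0.83 ± 0.52 in the septum and -1.99 ± 0.74 in the ventral tegmental area. The average was 2.27 ± 0.60 for the medial prefrontal cortex, where 7 of 9 Drd2 values were at the floor and the difference is a lower bound. The ventral tegmental area was below each of the other 5 regions, by 2.93 relative to the nucleus accumbens (adjusted p = 0.000226, permutation test, two-sided). The medial prefrontal cortex was above the nucleus accumbens, the lateral hypothalamus and the septum, and the amygdala above the lateral hypothalamus by 1.31 (adjusted p = 0.0170), so that 9 of the 15 pairs of regions were called. With M35077_s_at in place of S46131mRNA_s_at the amygdala was above the hypothalamus by 0.50 (adjusted p = 0.546, permutation test), and with S46131mRNA_r_at the sign turned, to -0.13 (adjusted p = 0.967, permutation test). The cortex was not called above the septum with either, nor above the hypothalamus with M35077_s_at. The ventral tegmental area was below all 5 other regions with each Drd1 probe set. In the tegmental area, however, S46131mRNA_r_at was at the floor on all 9 arrays and M35077_s_at on 8 of 9. With them the difference there is set almost wholly by Drd2, so these settings add no separate evidence on Drd1. Of the 18 comparisons of access 0 were called, the lowest p being 0.1, which is the smallest that 3 arrays against 3 can give by the exact permutation test. The smallest p of 4 arrays against 4 is also too large for a call after adjustment over the 33 comparisons. No access comparison here could have been called, so they do not decide whether access moved this difference.

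**Figure D2:**
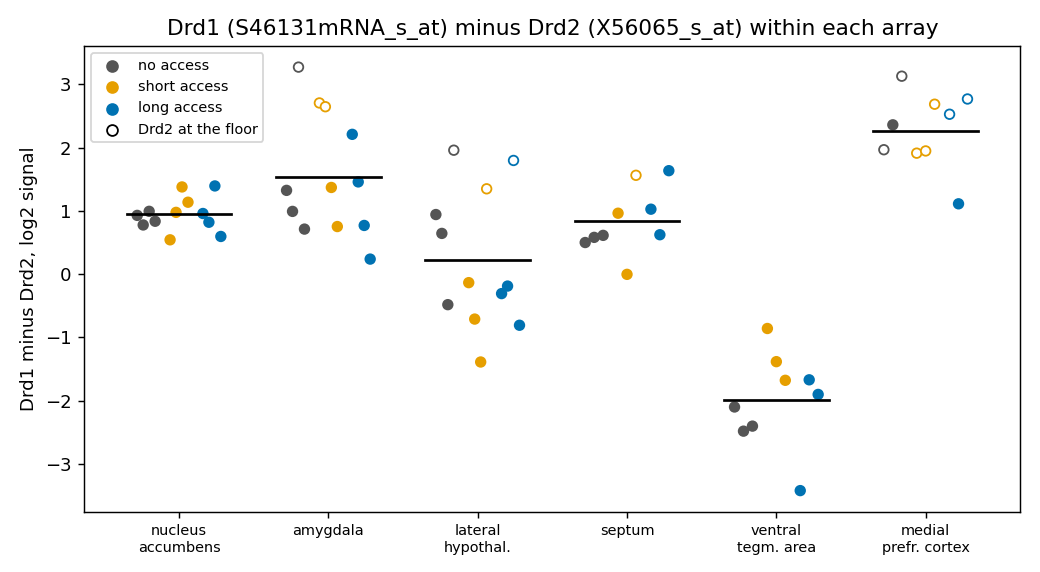
Log2 signal of Drd1 (S46131mRNA_s_at) minus that of Drd2 (X56065_s_at) on each of 63 arrays, by region and access group. Open points have Drd2 at the floor, and black bars are region means. The 9 arrays of the ventral tegmental area, with a mean of -1.99, lie below those of the nucleus accumbens, with a mean of 0.94.

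Whether access to cocaine changed the receptors was then asked in each region, in 42 comparisons of the probe sets that could be tested there. None was called by limma, against 531 of 12978 over all probe sets (4.09%), and 11 of the 42 had an unadjusted p under 0.05, where 13.4% of all did. By region the share called over all probe sets was 0% in the nucleus accumbens and the medial prefrontal cortex and at most 0.137% in the amygdala. It was 1.9%, 2.04% or 2.31% in the septum, 0.831%, 2.63% or 2.91% in the ventral tegmental area and 8.91%, 22.4% or 29.7% in the lateral hypothalamus. Groups did not overlap in 8 of the 42, with 4 differences in each direction, where 13.1% of all 12978 did not. Both cocaine groups are set against the same no access arrays, so these differences are not independent of each other. With array weights 1 was called (X53944_at in the septum, below).

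**Figure D3:**
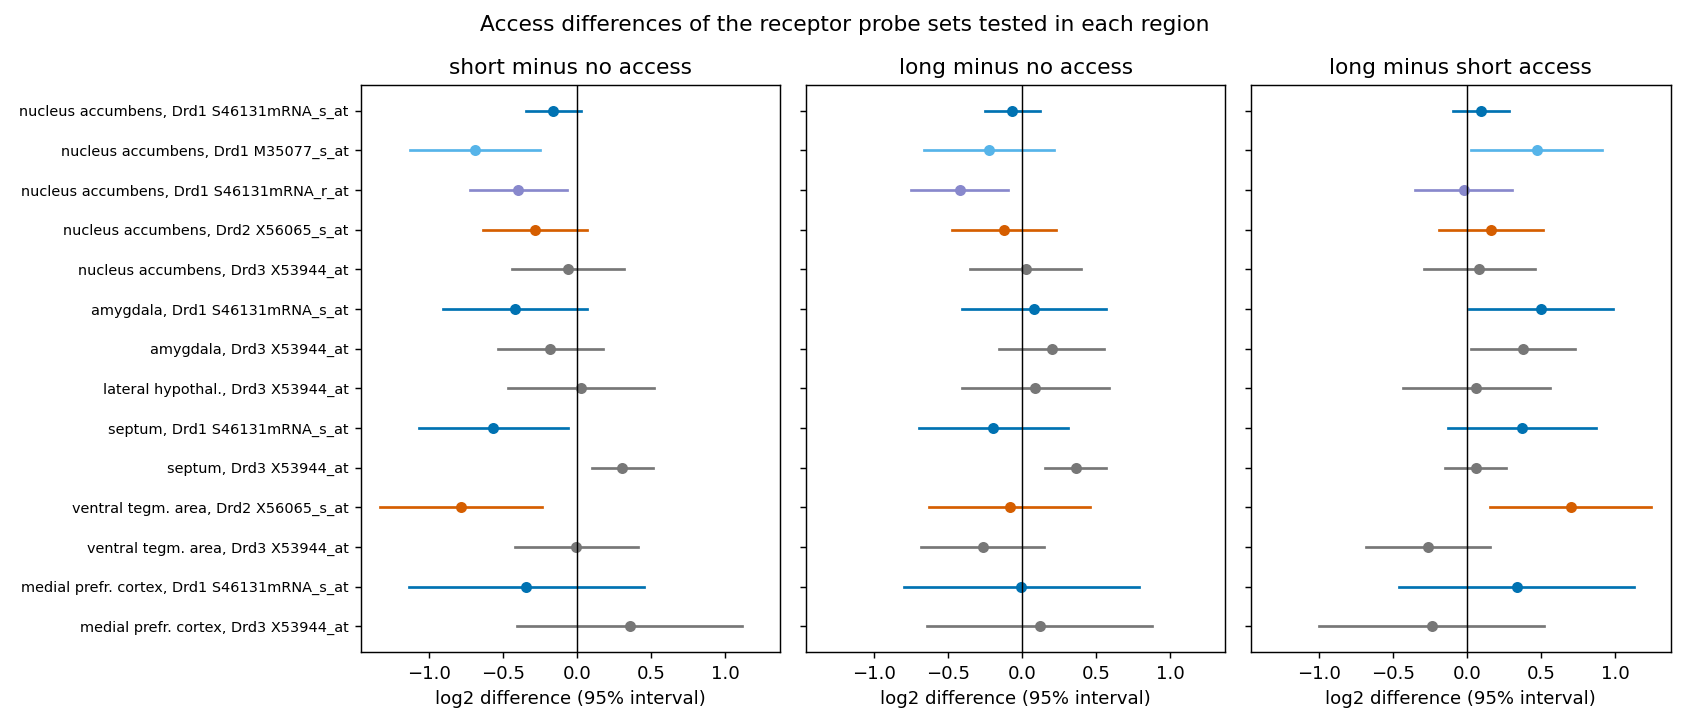
Log2 difference between access groups of each receptor probe set tested in a region, with 95% intervals from limma. Of 42 intervals 11 exclude zero before adjustment, and none was called after it.

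In the nucleus accumbens the most separated groups were those of Drd1 by M35077_s_at. The no access arrays were at 9.34, 9.22, 9.59 and 9.35, the short access arrays at 8.96, 9.0, 7.84 and 8.93, and the long access arrays at 9.13, 9.08, 9.21 and 9.19. All 4 no access arrays were above all long access arrays, which were above all short access arrays. Short access array 3 stood far below the rest of its group. Short minus no access was -0.69 ± 0.21 (adjusted p = 0.278 by limma), long minus no access -0.22 ± 0.21 (adjusted p = 0.638) and long minus short 0.47 ± 0.21 (adjusted p = 0.441). Without short access array 3 the first was -0.41 ± 0.10 (adjusted p = 0.129) and the last 0.19 ± 0.10. Over all probe sets of the region, 7.72%, 9.76% and 3.79% had groups that did not overlap in these 3 comparisons, and 0% were called.

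The other Drd1 probe sets did not separate the groups. S46131mRNA_r_at was at 8.58, 8.58, 8.34 and 8.18 with no access, at 8.13, 7.80, 8.28 and 7.88 with short access and at 7.73, 7.90, 8.27 and 8.10 with long access. Its difference from no access was -0.40 ± 0.15 for short access (adjusted p = 0.346) and -0.42 ± 0.15 for long access (adjusted p = 0.198), and the groups overlapped. S46131mRNA_s_at was at 10.87, 10.72, 11.00 and 10.74 with no access, at 10.61, 10.62, 10.81 and 10.66 with short access and at 10.64, 10.85, 10.79 and 10.79 with long access. It differed from no access by -0.16 ± 0.09 with short access (95% interval -0.35 to 0.03) and by -0.07 ± 0.09 with long access (-0.25 to 0.12). The probe sets also disagreed on single arrays, since short access array 3, the lowest of its group by M35077_s_at, was the highest of it by both others.

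**Figure D4:**
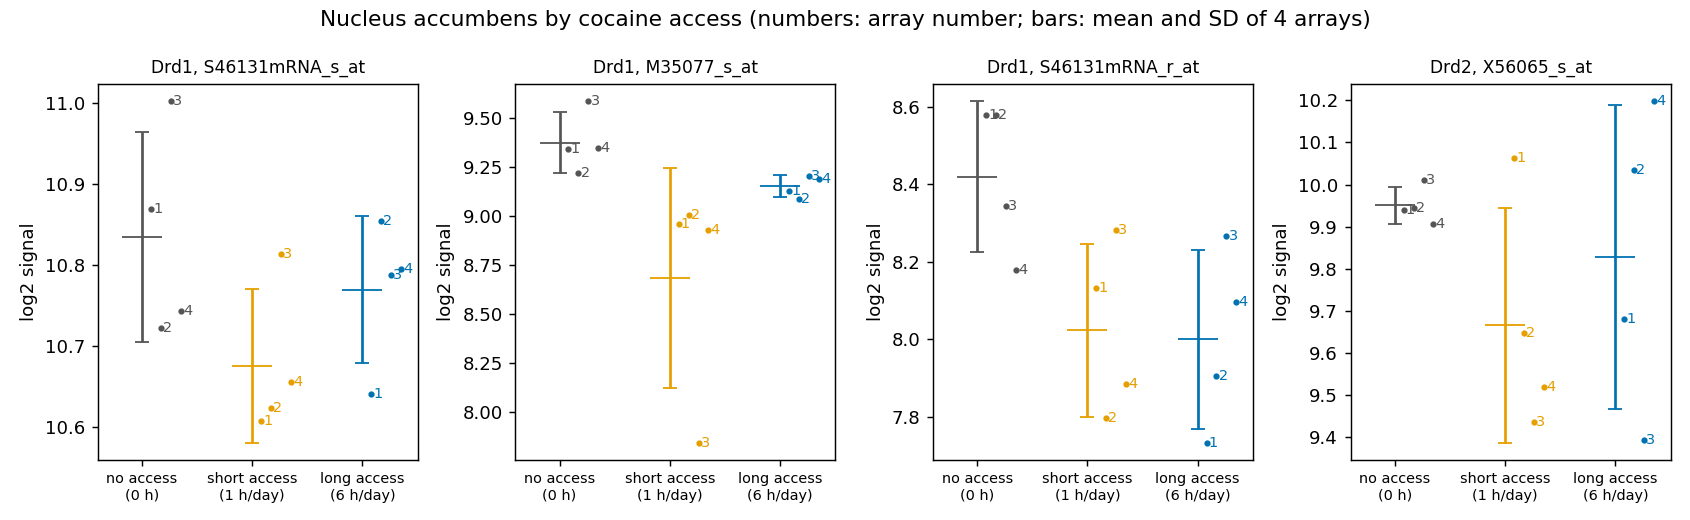
Log2 signal of the 3 Drd1 probe sets and of Drd2 in the nucleus accumbens by access group. Points are arrays with their number, and bars are the mean and SD of 4 arrays. By M35077_s_at the no access arrays (9.22 to 9.59) lie above the long access arrays (9.08 to 9.21) and these above the short access arrays (7.84 to 9.0), while the groups of the other 3 panels overlap.

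Drd2 in the nucleus accumbens was at 9.94, 9.94, 10.01 and 9.91 with no access, at 10.06, 9.65, 9.44 and 9.52 with short access and at 9.68, 10.03, 9.39 and 10.20 with long access. The no access arrays lay close together inside the spread of both cocaine groups. Short minus no access was -0.28 ± 0.16 (95% interval -0.64 to 0.07) and long minus no access -0.12 ± 0.16 (-0.48 to 0.23). X53944_at of Drd3 differed from no access by -0.06 ± 0.18 with short access and by 0.02 ± 0.18 with long access. Of 9 striatal neuron genes and 11 dopamine pathway genes tested there, 0 were called in each of the 3 comparisons. The mean of the 4 projection neuron markers Adora2a, Penk, Tac1 and Pdyn was 11.31 ± 0.08 with no access (SD, n = 4), 10.98 ± 0.20 with short access and 11.23 ± 0.11 with long access. It ranged from 11.21 to 11.40 with no access and from 10.69 to 11.14 with short access, and its part in the Drd1 values was not tested.

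In the ventral tegmental area Drd2 was at 7.77, 8.39 and 8.32 with no access, at 6.94, 7.59 and 7.60 with short access and at 8.48, 7.72 and 8.02 with long access. The short access arrays were below all the others. Short minus no access was -0.78 ± 0.25 (adjusted p = 0.252 by limma) and long minus short 0.70 ± 0.25 (adjusted p = 0.227), while long minus no access was -0.08 ± 0.25. Groups did not overlap for 12.6% and 16.3% of all probe sets in the first 2 comparisons, of which 0.831% and 2.63% were called. The mean of the 4 dopamine neuron markers was 11.96 ± 0.04 with no access (SD, n = 3), 11.93 ± 0.03 with short access and 11.98 ± 0.05 with long access. The antisense control probe sets of these groups stood at 7.10, 7.41 and 8.04, and their part in the Drd2 values was not tested.

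In the septum the Drd3 probe set X53944_at came nearest to a call. It was at 9.34, 9.18 and 9.22 with no access, at 9.41, 9.58 and 9.66 with short access and at 9.66, 9.63 and 9.53 with long access, so that all 6 cocaine arrays were above the no access arrays. Long minus no access was 0.36 ± 0.09 (adjusted p = 0.0626 by limma) and short minus no access 0.31 ± 0.09 (adjusted p = 0.142), a comparison in which 24.9% and 20.9% of all probe sets had groups that did not overlap and 2.31% and 1.9% were called. With array weights the first was 0.36 and called (adjusted p = 0.048). The 9 spike-in controls were at 10.76, 10.83 and 11.13 and the mean of 8 astrocyte markers at 11.54, 11.63 and 11.75 in the no, short and long access groups. Their part was not tested. Drd1 by S46131mRNA_s_at was at 7.48, 7.44 and 7.19 with no access, at 7.19, 6.67 and 6.56 with short access and at 7.21, 7.46 and 6.86 with long access. Short minus no access was -0.56 ± 0.23 (adjusted p = 0.285), and these groups did not overlap, by a margin within rounding.

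The amygdala, medial prefrontal cortex and lateral hypothalamus had no separated groups among the comparisons tested. In the amygdala long minus short access was 0.50 ± 0.23 for Drd1 by S46131mRNA_s_at and 0.38 ± 0.16 for X53944_at (adjusted p = 0.927 for both). M35077_s_at was too dim there for a test. It was at 6.37, 6.22, 5.73 and 5.89 with no access, at 6.04, 5.81, 6.15 and 6.04 with short access and at 6.93, 6.89, 6.42 and 6.60 with long access, above both other groups, where 4.64% (against no access) and 2.05% (against short access) of the tested probe sets were separated. Its long minus no access difference exceeded the mean of the other 5 regions by 0.74 ± 0.24 (adjusted p = 0.215). In the medial prefrontal cortex Drd1 by S46131mRNA_s_at differed from no access by -0.34 ± 0.35 with short and by -0.01 ± 0.35 with long access. A17753cds_s_at of Drd3 was above the floor on all 3 long access arrays there (5.65, 6.47 and 6.96), on 2 of 3 with no access (5.36 and 5.78) and on 0 of 3 with short access, a mean too dim for a test, in a comparison of long with short access where 3.68% of tested probe sets were separated. In the lateral hypothalamus only X53944_at could be tested, and it differed from no access by 0.03 ± 0.23 with short and by 0.09 ± 0.23 with long access. In that region 22.4% and 29.7% of all probe sets were called for the same comparisons.

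Averaged over the 6 regions, short minus no access was -0.26 ± 0.10 for Drd1 by S46131mRNA_s_at (adjusted p = 0.333), -0.16 ± 0.10 by M35077_s_at and -0.04 ± 0.11 by S46131mRNA_r_at, and -0.33 ± 0.21 for Drd2. Long minus no access was -0.05 ± 0.10, 0.04 ± 0.10, 0.03 ± 0.11 and 0.08 ± 0.21 for the same probe sets. None of 15 such comparisons was called, where 1.17% (long against no), 0.816% (short against no) and 0.233% (long against short) of all probe sets were. None of 90 tests of a difference between a region and the other 5 was called either (1.12% over all probe sets). At an unadjusted p under 0.05 were Drd1 by S46131mRNA_s_at (short minus no) and by M35077_s_at (long minus short, 0.20 ± 0.10) among the averages.

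Whether arrays of a region that were high in 1 receptor were high in the other was asked with the access group means taken out, in 15 relations over 12, 12 and 9 arrays of the nucleus accumbens, amygdala and septum. In the nucleus accumbens Drd1 (S46131mRNA_s_at) and Drd2 did not move together, with r = -0.01 and rho = 0.08 (adjusted p = 0.97 and 0.925, permutation test). There Drd1 followed Penk, a transcript of the neurons that Drd2 marks, with r = 0.787 and rho = 0.804 (adjusted p = 0.0110 and 0.0184, permutation test). Without the 2 arrays farthest in Penk r was 0.725, and with quantile normalization it was 0.468 and not called (adjusted p = 0.256). Drd2 and Penk had r = 0.377 there (adjusted p = 0.365). In every region the relations of Drd1 were asked with S46131mRNA_s_at alone. The Drd1 probe sets disagreed on single arrays of the nucleus accumbens. On short access array 3 the deviation from the group mean was 0.14 by S46131mRNA_s_at and -0.84 by M35077_s_at. Whether the other Drd1 probe sets follow Penk was not tested.

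In the amygdala Drd2 followed Penk, with r = 0.804 and rho = 0.820 (adjusted p = 0.0110 and 0.0184, permutation test) and 0.707 without the 2 farthest arrays. Drd2 was at the floor on 3 of these 12 arrays. Drd1 followed Adora2a, with r = 0.808 and rho = 0.776 (adjusted p = 0.0110 and 0.0216, permutation test) and 0.623 without the 2 farthest, though with quantile normalization rho was 0.497 and not called. In the septum Drd1 and Drd2 had r = 0.690 and rho = 0.767 (adjusted p = 0.122 and 0.0802, exact permutation test), which rested on the 2 farthest arrays, without which r was 0.319.

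**Figure D5:**
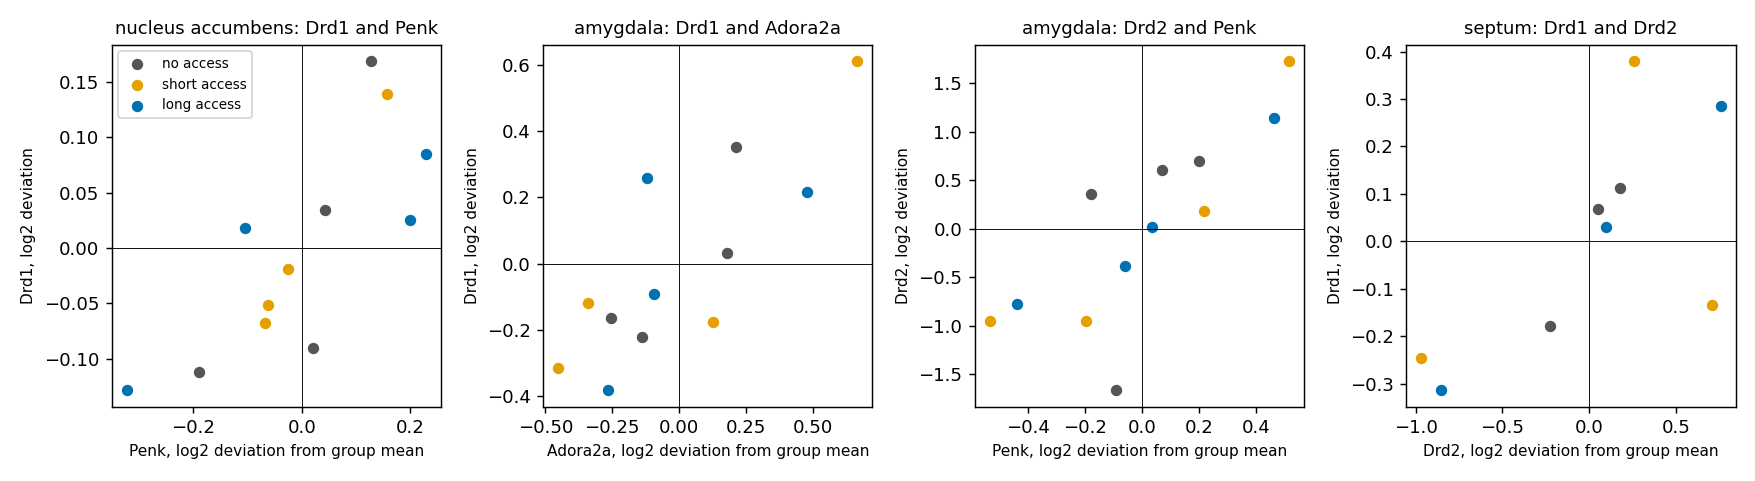
Deviation of each array from the mean of its access group (log2 signal) for 4 of the 15 relations. Points are arrays, coloured by access. In the nucleus accumbens Drd1 follows Penk (r = 0.787), in the amygdala Drd1 follows Adora2a (0.808) and Drd2 follows Penk (0.804), and in the septum the relation of Drd1 to Drd2 (r = 0.690) is 0.319 without 2 arrays. Drd1 is read by S46131mRNA_s_at alone. With quantile normalization the r of Drd1 and Penk in the nucleus accumbens is 0.468 and not called.

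Over all arrays the median signal lay between 119 and 168, and between 17.3% and 25.1% of probe sets were at the floor. The number of arrays limits the precision. Control probe sets differed between groups. The spike-in controls ran from 10.37 (short access, medial prefrontal cortex) to 12.32 (long access, ventral tegmental area). In the tegmental area they were at 11.55, 11.95 and 12.32 with no, short and long access, and their part was not tested. In the lateral hypothalamus the antisense controls of no access arrays were far brighter than those of the cocaine groups, at 8.13 ± 0.21 against 6.84 ± 0.17 with short and 6.75 ± 0.15 with long access (SD, n = 4). In the ventral tegmental area the antisense controls were at 8.04 ± 0.19 with long access (SD, n = 3).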

How the data were processed

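The authors deposited 1 linear signal intensity for each probe set and array, computed with MAS5 per the submitters' processing notes; version, scaling target and detection calls are not given in the sources used here. Of 1322 probe sets 59 are controls. Arrays were set to a common 2% trimmed mean (500) over the other 1263, values under 32 were raised to 32, and the log2 of these deposited intensities was used. Probe sets with a mean signal of at least 100 in the region (in at least 1 region for fits of all arrays) were tested with limma 3.58.1 in R 4.3.3 (lmFit, eBayes with an intensity trend), adjusted by Benjamini-Hochberg over all probe sets of each contrast, threshold 0.05. Regions, averages and differences between regions came from 1 fit of 63 arrays in 18 groups, access from a fit per region. MAS5 signal near background and the floor understate folds. Probe set names ending in _s_at mark probes shared with other transcripts, and those in _r_at a relaxed probe selection. Permutation tests used SciPy 1.17.1 (exact, or 100000 resamples where a group had 10 or more arrays). The scripts were tested on simulated data with known changes.

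Drd1, Drd2 and Drd3, the gene lists and the tests were chosen with earlier results of these data known. The text gives every receptor probe set, for each one tested the 5 genes of highest r among 521, up to 6 genes of either list with the smallest p in the nucleus accumbens, and Adora2a, Penk, Th and Slc6a3. Rarb, Gad1, Chrm4, Drd4 and Drd5 were added after their values were seen. For a gene with several probe sets the one with the highest mean was used. Same-numbered arrays had correlated deviations (every r over 0.1) in 5 of the 18 access comparisons, so the array number may pair arrays in those. Alternatives were other scaling, floor, filters, samples, weights, adjustment, a replicate block and each array left out.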

Additional observations from a re-analysis of the deposited data

Results flagged for a closer look

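Among groups of 4 arrays, 10 of 45 tested held an array far from the rest of its group (gap over range above 0.829). Chance alone meets this rule in about 5% of groups only where no value is at the floor. Where 3 of 4 arrays are at the floor the ratio is 1 by construction, as in several of the groups below. The count is thus no measure of how many arrays were unusual. M35077_s_at of Drd1 in short access array 3 of the nucleus accumbens was at 7.84, while the other Drd1 probe sets were highest of their group there. In the lateral hypothalamus M35077_s_at was at 6.12 on no access array 2, at 5.54 on short access array 4 and at 5.95 on long access array 3, with the other arrays at or close to the floor of 5. In the same region S46131mRNA_s_at was at 5.38 on short access array 3, S46131mRNA_r_at at 5.81 on no access array 4 and X53944_at of Drd3 at 9.97 on no access array 4. A17753cds_s_at of Drd3 was above the floor on 1 array each of the no access group of the lateral hypothalamus (array 2, 5.78) and of the long access group of the nucleus accumbens (array 1, 5.32). Drd2 in the amygdala was at the floor (5.00) on no access array 3 alone of its group.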

How the results depend on the processing

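The 4 receptor probe sets called higher in the nucleus accumbens were 4 under each of 10 other settings and without each array. Of 42 access comparisons 0 were called, and 1 with array weights (X53944_at, septum), and of the tests of access between regions 1 was called with no filter (A17753cds_s_at, long minus short access in the medial prefrontal cortex, mostly values at the floor). Drd1 by M35077_s_at in the amygdala went from 0.27 to -0.34 with the values as deposited and to -0.018 with no access arrays only, S46131mRNA_r_at there from -0.29 to 0.26 with no floor, and M35077_s_at in the lateral hypothalamus minus the septum from -0.36 to 0.00223 as deposited. Of the 25 named like genes 8 stayed in the first 5 by Spearman rho and 13 by Pearson r over 63 arrays. The within-array difference of Drd1 and Drd2 gave 9 calls, 6 with M35077_s_at and 8 with S46131mRNA_r_at, and 2 of 3 relations between arrays were called with quantile normalization. With a replicate block 0 of 42 access comparisons and 0 of 15 averages were called, and the block ended 2 calls between regions, given above. Over other settings 973 values kept direction and side of the threshold, 24 lost their call and 9 gained one. A further 4 changed sign with a call in either fit, and 31 changed sign with a call in neither. The causes of the changes were not tested. With only probe sets lacking a cross-hybridisation suffix no Drd1 or Drd2 probe set is left, so that setting gave no region count. With signals near background in most regions, Drd1 and Drd2 differences outside the nucleus accumbens are measured less firmly.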
